A study of Mus musculus with 4 samples.

Results

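The loci of 5 genes of the NF-kB pathway were examined for convergent transcription, in which nascent transcripts run towards each other over the same DNA. They were the subunit genes Nfkb1 and Rel and the inhibitor genes Nfkbia, Tnfaip3 and Nfkbiz. Since the deposited lists name no genes, each locus was taken as a fixed window in the mouse build mm9: chr3:135230000-135375000 (Nfkb1), chr11:23615000-23695000 (Rel), chr12:56570000-56615000 (Nfkbia), chr10:18700000-18755000 (Tnfaip3) and chr16:55790000-55860000 (Nfkbiz). Every region that lay wholly within a window in any library was a member, which gave 75 of the 47975 deposited regions. No mm9 gene annotation was used, so which exon, intron or start site a region covers was not determined, and a gene's name below stands for its window. Another 5 regions that cross a window's edge, 4 at Nfkb1 and 1 at Rel, were kept apart.

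The regions came from global run-on sequencing (GRO-seq), which labels and sequences the RNA that engaged polymerases extend in isolated nuclei. All 4 libraries were made from splenic B cells of Fucci-EGFP+ C57BL/6 mice, which carry a fluorescent cell cycle reporter, and all cells had been stimulated in culture by LPS, IL4 and Rp105. The 2 unsynchronized libraries came from total cells that served as the control. For the 2 early G1 libraries, nocodazole, which arrests cells in mitosis, was given at 100 ng/ml from 42 h after isolation for 6 h, EGFP+ cells, mostly in G2/M, were sorted and cultured again for 1.5 h, and early G1 cells were sorted from these. The deposited name of early G1 replicate 1 says 1 h instead. Nocodazole, sorting and renewed culture cannot be told apart from the cell cycle phase. Age and sex of the mice, and whether replicates were separate mice or cultures, are not given in the sources used here, so a p-value covers no more than the spread of these libraries, part or all of which may be technical. B cell identity was not checked with marker genes, because the files name none.

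NF-kB factors are dimers of Rel-family proteins that inhibitor proteins hold in the cytoplasm of resting cells. Signals such as LPS lead to the destruction of these inhibitors, and the freed dimers enter the nucleus and bind kB sites. Among the genes they switch on are their own inhibitors, which closes a negative feedback loop, and in B cells the pathway supports survival and entry into the cell cycle.

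The kB site is the element through which this loop acts, so the bases before the start sites are shown for the 3 of the 5 genes that matched the RefSeq promoter table (GRCm38.p6). Each runs 5′ to 3′ over the 250 bases before the start, all on the minus strand, and capitals mark matches to a loose kB motif (GGG, any 5 bases, then CC) on either strand, overlapping matches included. Whether a deposited region covers these bases was not determined, since the sequences are of another build than the regions.
Rel, chr11:23770970-23771219: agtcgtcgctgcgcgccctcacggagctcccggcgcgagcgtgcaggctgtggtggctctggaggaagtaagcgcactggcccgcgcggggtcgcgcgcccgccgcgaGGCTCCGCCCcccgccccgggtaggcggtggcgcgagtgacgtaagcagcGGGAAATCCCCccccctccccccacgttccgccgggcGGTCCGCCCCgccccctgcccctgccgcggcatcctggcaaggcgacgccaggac
Nfkbia, chr12:55492648-55492897: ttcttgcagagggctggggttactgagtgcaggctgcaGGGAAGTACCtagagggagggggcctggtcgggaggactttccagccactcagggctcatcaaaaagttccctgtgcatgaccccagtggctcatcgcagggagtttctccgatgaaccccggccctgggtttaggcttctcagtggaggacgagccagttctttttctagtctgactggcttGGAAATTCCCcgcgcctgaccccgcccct
Tnfaip3, chr10:19015411-19015660: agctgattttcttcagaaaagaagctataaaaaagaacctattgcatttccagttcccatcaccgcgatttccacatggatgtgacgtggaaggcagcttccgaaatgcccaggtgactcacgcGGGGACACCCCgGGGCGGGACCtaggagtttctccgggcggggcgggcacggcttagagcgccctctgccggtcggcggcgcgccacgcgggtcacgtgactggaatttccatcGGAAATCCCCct

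The loose motif was found before 15046 of the 32851 start sites of the table (45.8%), counted over the same 250 bases. The stricter kB consensus, with a purine and pyrimidines at set places, was found before 7.25% of them. All 3 promoters shown hold it: Rel in the stretch at bases -92 to -82, Nfkbia at bases -29 to -20, and Tnfaip3 at bases -125 to -116 and -12 to -3, counted from the start site. Nfkbia and Tnfaip3 thus both carry a consensus match within 30 bases of the listed start, GGAAATTCCC and GGAAATCCCC. The table's other start of Tnfaip3 (not shown) has matches to the loose motif and 0 to the consensus. These matches describe the letters and are not measured binding sites.

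Each deposited region has a signal, which the authors call a geometric mean. The values fit the square root of the product of both strands' read counts, over region length and a constant of each library, and "reads" below are that root recovered before division. With RPKM-like scaling, which is assumed and not stated, library size would be 14720000 and 13480000 reads for unsynchronized and 8170000 and 9520000 for early G1 cells, so depth moved with the group. A library listed 10708 to 12768 regions. Merging the lists where regions shared at least 1 base left 20175 regions, and 4972 of them had a call in every library. Over these the median change of log2(signal + 1), early G1 minus unsynchronized, was 0.41, and it was -0.03 once each library was divided by its median. Changes below are therefore also read against this shift. Fewer transcribing cells and less transcription per cell cannot be told apart.

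Convergent transcription was called at all 5 loci in every library, with 15 and 17 member regions for unsynchronized and 26 and 17 for early G1 replicates. The 75 calls merged into 30 regions, 10 at Nfkb1, 8 at Rel, 2 at Nfkbia, 6 at Tnfaip3 and 4 at Nfkbiz. Of the 30, 9 were called in all 4 libraries, while over all merged regions the share was 24.6%. Of the other regions 5 were called in 3 libraries, 4 in 2 and 12 in a single library. Early G1 replicate 1, which had the longest list (12768 regions), held 7 of these 12. Its share of such regions over the genome was not counted. Only 1 of the 30 was called in both early G1 and neither unsynchronized library (3.7% of all merged regions), and 0 in both unsynchronized and neither early G1 library (4.98%). Where a list has no call, transcription may still have taken place.

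**Figure D1:**
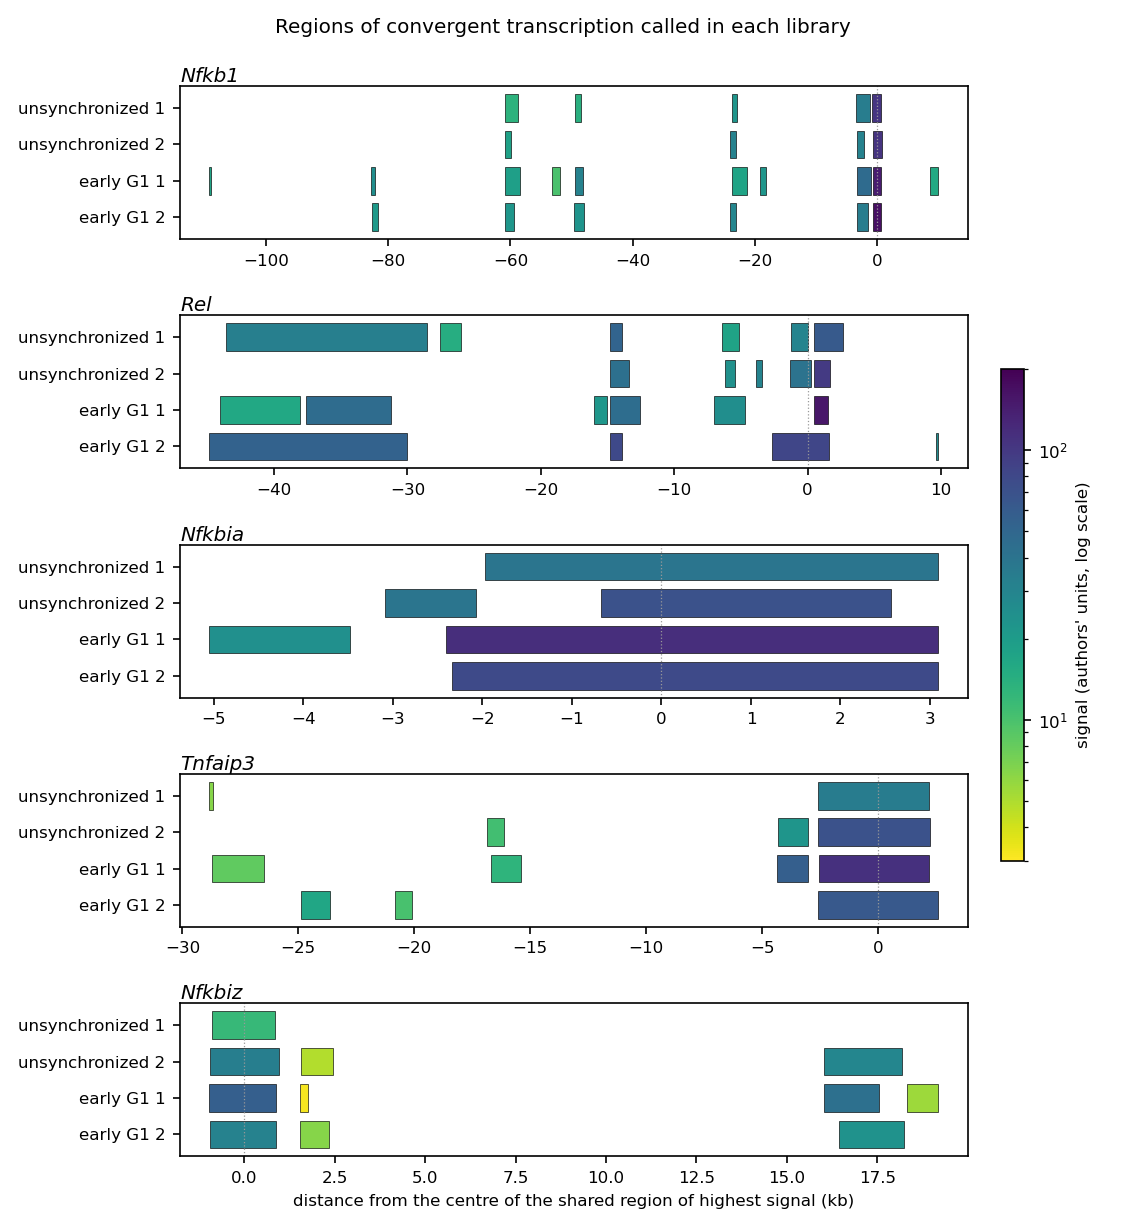
Called regions (boxes) of the 4 libraries (rows) at the 5 loci (panels), with distance in kb from the centre of the merged region of highest mean signal among those called in all 4 libraries and colour giving the signal on a log scale. Tnfaip3 and Nfkbia each show a block called in every library, while at Rel the long block at the left has no call in unsynchronized replicate 2.

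Nfkb1, which encodes a precursor that is processed into a DNA-binding subunit, had a compact region near the high-coordinate end of its calls, chr3:135352110-135353750. Its signal was 104 and 107 for unsynchronized and 143 and 169 for early G1 replicates, so both early G1 libraries lay above both unsynchronized ones. These values rest on 2223, 2325, 1671 and 2317 reads, which give a counting error of at least 1.47% to 1.73% (counting error only). This region had the highest mean signal of the 9 shared member regions and lay at the 98.0th percentile of all 4972. The means were 105 ± 1.89 and 156 ± 18.6 (SD, n = 2), with a log2 change of 0.56 (SE 0.41, adjusted p = 0.52 in limma), which was 0.14 beyond the shift of all regions. On unscaled reads per kb its log2 change was -0.11.

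Directly beside it, chr3:135349439-135351889 had signals of 34.5 and 31.8 (unsynchronized) against 47.2 and 34.5 (early G1). The groups overlapped narrowly at 34.5, and the log2 change was 0.28 (SE 0.41, limma adjusted p = 0.76). Both remaining shared regions of Nfkb1 were weaker. At chr3:135328750-135331620 the signal was 22.4 and 31.0 against 17.2 and 29.2, the single negative change among the shared member regions (-0.22, SE 0.44, limma adjusted p = 0.82). Early G1 replicate 1 had 357 reads over a call of 2543 bp there, while the others had calls of 811 to 1063 bp. As signal times length, the log2 change was 0.74. At chr3:135291978-135294521 the signal was 13.5 and 18.1 against 19.1 and 21.8, giving a change of 0.37 on the log2 scale (SE 0.43, adjusted p = 0.69 in limma).

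Between these, chr3:135303291-135304906 was called in 3 libraries, with signals of 14.1 in unsynchronized replicate 1 and 31.8 and 22.8 in early G1. The region called in early G1 cells alone was chr3:135270103-135271320, at 25.4 and 20.6 on 129 and 191 reads. Another 4 regions of the Nfkb1 window were called in early G1 replicate 1 alone, with 49.6 to 169 reads each. Early G1 replicate 1 thus held 10 calls at Nfkb1, against 5 and 4 in the unsynchronized libraries and 6 in early G1 replicate 2.

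Rel, which encodes the subunit c-Rel that lymphocytes need for their proliferative response, held the longest member region, chr11:23624462-23640759. Unsynchronized replicate 1 had a call of 15009 bp there with a signal of 33.3 on 7354 reads, and early G1 replicate 2 a call of 14863 bp with 54.1 on 7662 reads. Early G1 replicate 1 had separate calls of 6010 bp at 16.2 and 6405 bp at 46.0. Unsynchronized replicate 2 had no call. These calls ranked between the 97.0th and the 99.3th percentile of length in their libraries. Long convergent transcription was thus recorded here in both groups, and its absence from the list of 1 unsynchronized library separates replicates, not groups. In the GRCm38.p6 order of protein-coding genes Rel lies between Pus10 and Papolg. Whether this long region belongs to Rel or to a neighbouring gene was not determined.

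Further along the Rel window, chr11:23666676-23671974 was called in every library, as 2 regions in each unsynchronized and 1 in each early G1 library. Its length-weighted signal was 50.0 and 65.5 (unsynchronized) against 156 and 83.3 (early G1), without overlap of the groups in this average. The 2 calls averaged were at 30.3 and 61.7 in unsynchronized replicate 1 and at 40.6 and 98.5 in unsynchronized replicate 2. The last of these, at about the place of the early G1 replicate 1 call, exceeded the 83.3 of early G1 replicate 2. The log2 change was 0.98 (SE 0.44, unadjusted p = 0.041 and adjusted p = 0.31 in limma). Called length differed widely here, at 3478 and 2776 bp against 1031 and 4277 bp. As signal times length the log2 change was 0.43 (limma adjusted p = 0.73). Reads were 2557 and 2450 against 1314 and 3393, so early G1 replicate 1, the library of highest signal, held the fewest reads on the shortest call. Leaving that library out gave a log2 change of 0.53.

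In the middle of the Rel window, chr11:23654518-23656762 had signals of 52.3 and 43.4 against 45.4 and 79.4, which overlapped between the groups (log2 change 0.33, SE 0.43, limma adjusted p = 0.73). Its 4 calls began within 19 bp of each other but ended up to 1385 bp apart. A further region, chr11:23662318-23664602, was called in 3 libraries at 17.4, 24.3 and 25.4, with none in early G1 replicate 2.

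Nfkbia encodes the classical inhibitor that retains NF-kB dimers in the cytoplasm and is itself an NF-kB target gene. Its window held a single shared region, chr12:56587402-56593590, called over 5063 bp in unsynchronized replicate 1, over 1020 and 3236 bp in unsynchronized replicate 2, and over 5506 and 5441 bp in the early G1 libraries. The signal was 38.9 and 62.0 (unsynchronized) against 116 and 77.3 (early G1). Both early G1 libraries were higher, with means of 50.4 ± 16.3 and 96.6 ± 27.4 (SD, n = 2). The log2 change was 0.93 (SE 0.43, unadjusted p = 0.048 and adjusted p = 0.33 in limma), 0.52 beyond the shift of all regions and at the 84.1th percentile of all changes. Leaving out unsynchronized replicate 1 gave 0.60 (unadjusted p = 0.25 in limma) and leaving out early G1 replicate 1 gave 0.64 (unadjusted p = 0.30 in limma), so neither kept an unadjusted p below 0.05. Leaving out replicate 2 of either group gave 1.26 and 1.22. Total reads before scaling were 2900 and 3553 against 5216 and 4003, so this total was also higher in early G1, in libraries of smaller inferred size. The early G1 calls were longer, and on unscaled reads per kb the log2 change was 0.27 (limma adjusted p = 0.84). Replicates differed 1.59-fold and 1.50-fold in signal, beside 1.92-fold for the group means.

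Tnfaip3 encodes a ubiquitin-editing enzyme that shuts down signalling upstream of NF-kB. Its region chr10:18729625-18734824 was called in almost the same place in every library, with lengths of 4798, 4821, 4744 and 5169 bp, starts within 54 bp and ends within 402 bp. The signal was 34.7 and 70.0 (unsynchronized) against 112 and 63.2 (early G1), so the groups overlapped. Means were 52.3 ± 24.96 and 87.4 ± 34.2 (SD, n = 2), which differed by 0.76 on the log2 scale (SE 0.46, adjusted p = 0.44 in limma). Leaving out unsynchronized replicate 1 or 2 gave 0.26 or 1.25, and without early G1 replicate 1 or 2 it was 0.35 or 1.16. The adjacent region chr10:18727865-18729221 was called in 1 library of each group, at 22.5 in unsynchronized replicate 2 and 56.9 in early G1 replicate 1. These were also the libraries with the higher signal in the main region. The 4 remaining regions were weak, at signals of 6.42 to 16.7, and each was called in 1 or 2 libraries.

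Nfkbiz encodes a nuclear member of the inhibitor family that is induced by LPS and modulates the transcription of NF-kB target genes. Its shared region chr16:55820465-55822394 had signals of 12.1 and 33.7 (unsynchronized) against 56.7 and 31.8 (early G1), which overlapped. The reads were 310 and 867 against 852 and 554. The log2 change of 1.03 (SE 0.50, limma adjusted p = 0.36) was the largest among the shared member regions. Leaving out unsynchronized replicate 1, the lowest library, gave 0.32, and leaving out replicate 2 gave 1.73. The other end of the locus, chr16:55837462-55839654, was called in 3 libraries, at 29.1 in unsynchronized replicate 2 and 43.2 and 23.6 in early G1, with no call in unsynchronized replicate 1. A weak region between them, chr16:55822966-55823900, had 59.6, 5.66 and 49.2 reads in the same 3 libraries.

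**Figure D2:**
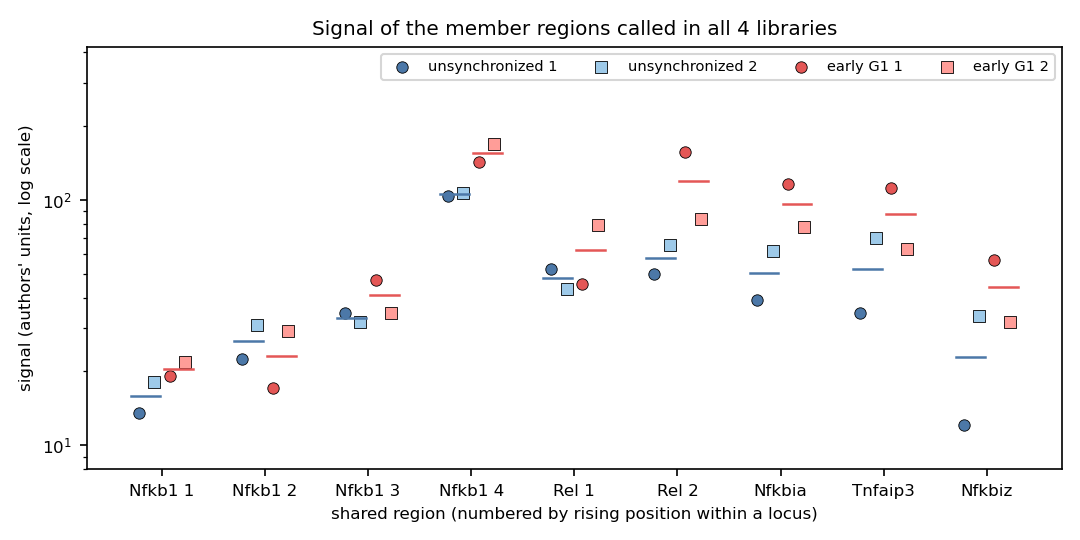
Signal (log scale, authors' units) of the 9 member regions called in all 4 libraries, with points for libraries and lines for group means of 2 libraries, and regions numbered by rising position within Nfkb1 and Rel. Both early G1 points lie above both unsynchronized points in 4 of the 9 regions, among them Nfkbia and Nfkb1 4.

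Of the 9 shared member regions, 0 passed the test between the groups (limma, Benjamini-Hochberg adjusted over all 4972 regions, adjusted p from 0.31 to 0.82). Among all 4972 regions early G1 was called higher in 0.302% and lower in 0.0402%. With an unadjusted p below 0.05, 2 of the 9 were higher in limma (Rel chr11:23666676-23671974 and Nfkbia) and 0 lower, against 13.9% of all regions higher. Both early G1 libraries lay above both unsynchronized libraries in 4 of the 9, near the 43.9% of all regions. The reverse was seen in 0, against 4.67%. The members' median log2 change was 0.56, beside 0.41 for all regions, and 8 of 9 were above 0, beside 77.997% of all regions.

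With every library divided by its own median, the members' median log2 change was 0.10. Changes were above 0 in 5 of 9, beside 48.0% of all regions. In 2 of the 9 both early G1 libraries were on top, against 19.5% of all regions. In 1, Nfkb1 chr3:135328750-135331620, both were below, at a log2 change of -0.67, the furthest from 0 of the 9. How many of all regions were below with this scaling was not counted. The 5 above 0 were the shared regions of Nfkbia, Tnfaip3 and Nfkbiz, Rel chr11:23666676-23671974 and Nfkb1 chr3:135352110-135353750. The first 4 of these also stayed above 0 on unscaled reads per kb, where 32.2% of all regions were above 0 and their median was -0.24. On that scale Nfkb1 chr3:135328750-135331620 was at -0.91. None of these differences passed the test (limma adjusted p from 0.47 to 0.96 over both scalings).

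At the 3 inhibitor loci replicates of 1 group differed in signal, least at Nfkbia. At Tnfaip3 both differences between replicates exceeded that between the groups, at Nfkbiz 1 of them did, and at Nfkbia neither. A replicate difference is between single libraries and the group difference between means of 2, which vary less, so this comparison is no test. Unsynchronized replicate 2 exceeded replicate 1 by 0.66 at Nfkbia, 0.99 at Tnfaip3 and 1.41 at Nfkbiz (differences of log2(signal + 1)), where the median of all shared regions was 0.40. Those differences lay at the 71.1th, 89.4th and 96.9th percentile of all regions. In early G1, replicate 1 exceeded replicate 2 by 0.58, 0.81 and 0.82, where the median was 0.04, at the 78.4th, 85.8th and 86.0th percentile. The 4 Nfkb1 regions had replicate differences of -0.11 to 0.45 and of -0.73 to 0.44, with no common sign. Rel was mixed. Its region chr11:23654518-23656762 was at -0.26 (unsynchronized) and -0.79 (early G1). Rel chr11:23666676-23671974 was at 0.38 and 0.90, with the signs of the inhibitor loci, and its early G1 difference lay at the 88.2th percentile. That the inhibitor loci and this Rel region were high in the same libraries was seen after the values were known, and what moves them together was not tested.

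**Figure D3:**
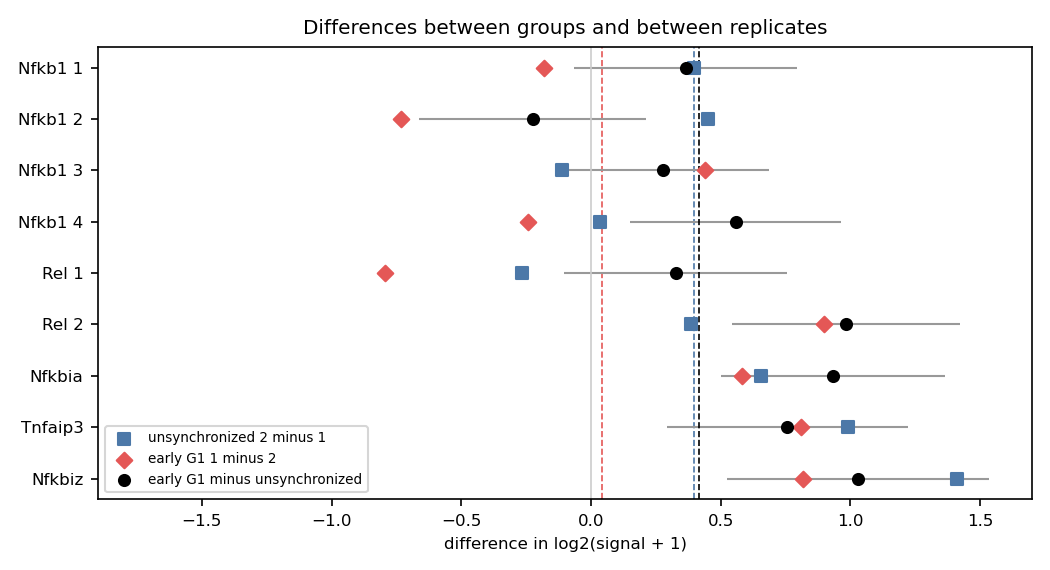
Differences of log2(signal + 1) for the 9 shared member regions, between groups (black, with the standard error of the limma fit), between unsynchronized replicates (blue) and between early G1 replicates (red); dashed lines are the medians of all 4972 regions in the same colours. At Tnfaip3 the replicate differences of 0.99 and 0.81, each between single libraries, exceed the group difference of 0.76, which is between means of 2 libraries.

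The edges of calls lay close together in some member regions and far apart in others. Among the 4003 shared regions with exactly 1 call in every library, the 4 starts spread over a median of 182 bp and the 4 ends over a median of 182 bp. For the 7 member regions of this kind the medians were 74 and 1238 bp, so starts spread less and ends more than over all regions. At Nfkb1 chr3:135352110-135353750 the starts lay within 23 bp and the ends within 189 bp, at the 8.12th and 50.6th percentile of spread. At Nfkbiz they lay within 81 and 102 bp. With Tnfaip3, these regions had calls whose longest was 1.09 to 1.13 times the shortest, whereas the median of all such regions was 1.67. Over the 7 members the median was 2.31. The other Nfkb1 regions and Rel chr11:23654518-23656762 had ratios of 2.31 to 3.14, with the spread of their ends at the 89.7th to 94.8th percentile. In 5 of the 7 member regions of this kind the starts or the ends lay within 100 bp, beside 58.3% of all regions, a limit chosen after the values were seen. Bases called in all 4 libraries made up 41.7% of all called bases at Nfkbia and 38.3% at Tnfaip3, but 6.39% at Rel, 25.1% at Nfkb1 and 29.4% at Nfkbiz. Over the genome the share was 16.5%.

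Whole windows were compared by their summed signal times length (in signal kb), beside the called length and the mean signal, because regions were called separately in each library. At Nfkb1 the sums were 292 and 249.6 (unsynchronized) against 522 and 428 (early G1), on 7.69 and 4.52 kb against 14.6 and 8.42 kb of called DNA. Both the sum and the called length were higher in both early G1 libraries, by 1.75-fold and 1.88-fold. The mean signal per called base was 46.6 ± 12.2 and 43.3 ± 10.6 (SD, n = 2), a difference smaller than the spread between replicates. The higher sum thus went with more called DNA.

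At Nfkbia the sums were 197 and 264 against 678 and 420.3, on 5.06 and 4.26 kb against 7.08 and 5.44 kb, and the mean signal was 50.4 ± 16.3 against 86.5 ± 13.1 (SD, n = 2). This was the window in which sum, called length, mean signal, unscaled reads and median-scaled sum were each higher in both early G1 libraries. These measures are not separate, since the sum is called length times mean signal. Unscaled reads and the median-scaled sum are the sum divided by a constant of each library. The share of bins higher in mean signal, in unscaled reads or in all measures at once was not counted. The sum was 2.38-fold higher, and the median-scaled sum 1.74-fold, each with an exact two-sided permutation p of 0.333, the smallest that 2 against 2 libraries allow. Without early G1 replicate 1 the log2 ratio of the sums was 0.87, and without early G1 replicate 2 it was 1.56, against 1.25 in all.

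The other windows overlapped between the groups in their sums. Tnfaip3 had 168 and 374 against 642 and 356 (exact permutation p = 0.667), although its called length was higher in both early G1 libraries, at 9.61 and 7.19 kb against 4.97 and 6.85 kb. Rel had 762 and 275 against 732 and 1233 (exact permutation p = 0.667), with 22.1 and 5.37 kb called in unsynchronized against 18.9 and 20.2 kb in early G1 cells. Leaving out unsynchronized replicate 1 gave a log2 ratio of 1.84, and leaving out replicate 2, the library that lacked the long region, gave 0.37. Nfkbiz had 21.1 and 131 against 175 and 106 (exact permutation p = 0.667), and a log2 ratio of 0.10 when unsynchronized replicate 1 was left out and of 2.73 when replicate 2 was. For Tnfaip3 the corresponding ratios were 0.41 and 1.57.

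**Figure D4:**
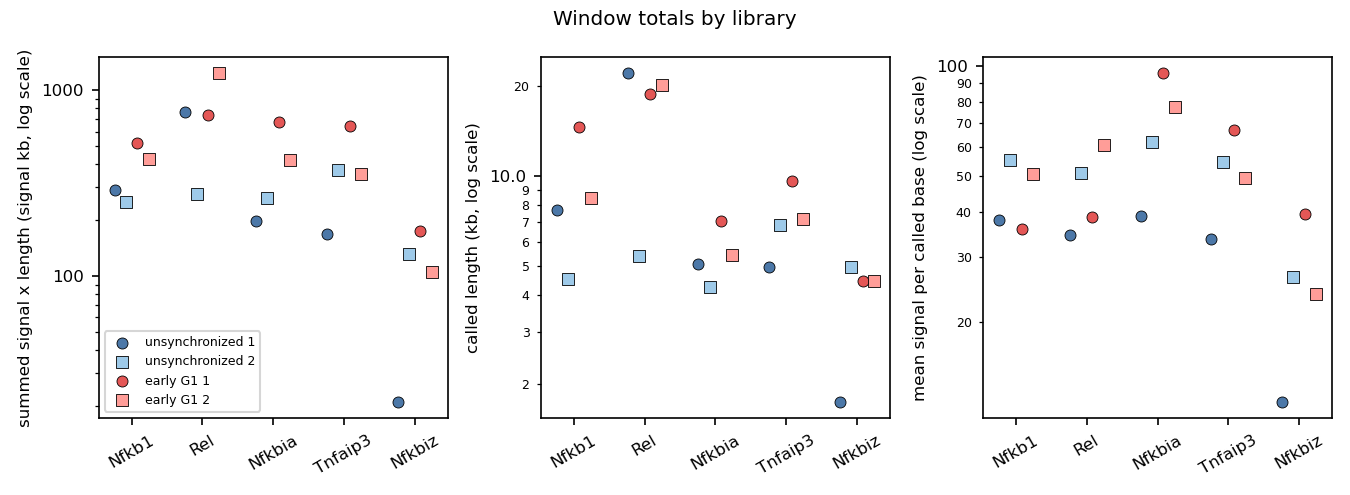
Summed signal times length, called length and mean signal per called base (log scales) for the 5 windows, with 1 point per library. At Nfkbia both early G1 libraries lie above both unsynchronized libraries in all 3 panels, and at Nfkbiz unsynchronized replicate 1 lies below the other libraries in all 3.

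Sums were thus higher in both early G1 libraries in 2 of the 5 windows, against 37.2% of 3938 bins of 100 kb with a call in every library. After median scaling this held in 1 of 5, Nfkbia, against 18.7% of bins. The ratio of mean sums was 1.75 to 2.38 in the windows, beside a median of 1.34 over the bins. With median scaling it was 1.24 to 1.74, beside 0.978. Called length was higher in both early G1 libraries in 3 of 5 windows (Nfkb1, Nfkbia and Tnfaip3), against 14.9% of bins, in which the median ratio of called length was 0.963. The windows span 45.0 to 145 kb, so a bin is not of the same size.

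Mean signal per called base, which takes length into account, can be ordered across loci within a library. Nfkbia had the highest value of the 5 loci in all 4 libraries, and Nfkbiz the lowest in 3, with Nfkb1 below it in early G1 replicate 1. In unsynchronized cells the means ran from Nfkbia (50.4 ± 16.3) through Nfkb1 (46.6 ± 12.2), Tnfaip3 (44.2 ± 14.8) and Rel (42.8 ± 11.8) to Nfkbiz (19.3 ± 10.2; SD, n = 2), and the first 4 did not differ beyond their spread. In early G1 cells Nfkbia (86.5 ± 13.1) was followed by Tnfaip3 (58.1 ± 12.3), Rel (49.9 ± 15.8), Nfkb1 (43.3 ± 10.6) and Nfkbiz (31.6 ± 11.0; SD, n = 2). There each step from Tnfaip3 to Nfkb1 was smaller than the spread of its neighbours.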

How the data were processed

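The authors deposited 1 list of regions of convergent transcription per GRO-seq library, per the file headers, so regions were called in each library and not on pooled libraries. HOMER, BWA 0.7.12 and the build mm9 are listed by the submitters' processing notes, with no role stated, and the way regions were called is not stated in the sources used here. The deposited signal is a geometric mean whose scaling is not stated. Its square times squared length was a whole multiple of 1 constant in 100% of regions tested (2164 to 3384 per library, multiples below 5000, tolerance 0.1), which gave the reads used here.

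Groups and replicate numbers came from the sample titles. Regions of the 4 libraries were merged genome-wide at 1 shared base, and a library's value was the length-weighted mean of its calls. Merged regions called in all 4 libraries were tested with limma 3.58.1 in R 4.3.3 (lmFit, eBayes with trend, log2(signal + 1), two-sided, Benjamini-Hochberg over all 4972, threshold 0.05), after a test on simulated data. Fold changes on this scale understate the change of low regions. Window sums were compared by exact two-sided permutation of libraries. Alternatives are given in the closing section. All shared regions of the 5 windows are named, and of the rest the longest and those called in 1 group alone, with others by count or as examples. The planned lists of other NF-kB pathway genes and cell type markers were not analysed here, since no mm9 gene positions were used. The members and lists were chosen with earlier results of these data known.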

Additional observations from a re-analysis of the deposited data

How the results depend on the processing

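The count of shared member regions past the threshold in limma was 0 under all alternatives: pseudocount 0.1, regions of low mean signal left out, median scaling, merging within 1 kb, signal times length, no trend, the replicate block, each library left out and, chosen after seeing the data, unscaled reads per kb and regions of similar called length (4 of the 9). At an unadjusted p under 0.05 the limma count was 2 in the main setting. Among the other fits of all 4 libraries it was 0 with median scaling, merging within 1 kb, no trend, the replicate block and unscaled reads per kb. It was 1 with pseudocount 0.1 and with signal times length, 2 among regions of similar called length, and 3 with low mean signal left out. Same-numbered replicates had deviations that correlated at 0.10 over 4972 regions, and with 2 numbers this does not establish pairing. The members' median log2 change was 0.10 with median scaling and -0.11 on unscaled reads per kb, against 0.56. Of 112 recomputed changes of single regions, 11 turned sign. With median scaling, Rel chr11:23654518-23656762 was at -0.13, Nfkb1 chr3:135291978-135294521 at -0.073 and Nfkb1 chr3:135349439-135351889 at -0.18. On unscaled reads per kb these were at -0.34, -0.29 and -0.39, and Nfkb1 chr3:135352110-135353750 at -0.11. Nfkb1 chr3:135328750-135331620 was at 0.74 as signal times length and ran from -0.59 to 0.14 when libraries were left out, above 0 without unsynchronized replicate 2 (0.00035) or early G1 replicate 1. Rel chr11:23654518-23656762 ran from -0.069 to 0.72, below 0 without early G1 replicate 2. The log2 ratio of called length ran from -0.18 to 1.86 at Rel and from -0.16 to 1.34 at Nfkbiz when libraries were left out, turning sign without unsynchronized replicate 2 and replicate 1 respectively. The log2 ratios of all 5 window sums stayed above 0 in all 40 recomputations. Most of these kept the deposited scaling, in which sums were also higher in early G1 over bins of 100 kb, by a median of 1.34-fold. The number of member regions called in all 4 libraries was 9, and 8 with merging within 1 kb, which joined Nfkb1 chr3:135349439-135351889 and chr3:135352110-135353750 into 1 region. For the sign changes under median scaling and unscaled reads, the cause was not tested. With 2 libraries a group, no permutation p can pass the threshold.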

Other observations

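Outside the member regions, a region crosses the upper edge of the Nfkb1 window in all 4 libraries, with signals of 10.4 and 8.40 (unsynchronized) against 17.0 and 10.6 (early G1) on 324, 175, 349 and 169 reads. In the GRCm38.p6 order of protein-coding genes, Nfkb1 lies between Manba and Slc39a8, and whether this region belongs to a neighbouring gene was not determined.

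The 3 shared regions elsewhere whose log2(signal + 1) over the 4 libraries was nearest to that of Nfkb1 chr3:135352110-135353750 were chr6:70668834-70681337, chr4:137149648-137150036 and chr3:88100465-88100924, at Euclidean distances of 0.26, 0.32 and 0.38. The nearest had signals of 117 and 122 (unsynchronized) against 143 and 161 (early G1). With 4 libraries, such likeness describes levels and says nothing of shared control.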
